A study of Mus musculus with 12 samples.

Results

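The mRNAs described here are the 10 transcripts that carry glucose through glycolysis to lactate, from the glucose transporter Slc2a1 to the lactate dehydrogenase Ldha. They were chosen by name, as Slc2a1, Hk2, Gpi1, Pfkp, Aldoa, Gapdh, Pgk1, Eno1, Pkm and Ldha. All 10 were found among 55376 listed genes, and all 10 were among the 12224 genes that had at least 1 CPM (counts scaled to library size) in at least 3 libraries and were tested.

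The libraries came from 4T1, a mouse mammary gland cancer cell line. The cells were stably transfected with an empty vector (mock) or with a full-length Mettl7a1 cDNA in the vector pBICEP-CMV-2 (METTL7A1), and the METTL7A1 cells were kept under G418 selection. METTL7A1 belongs to the methyltransferase-like proteins. Before lysis, both lines received cycloheximide at 0.1 mg/ml for 5 min, which holds ribosomes on the mRNA, and sucrose gradient fractions were pooled before RNA depleted of ribosomal RNA was sequenced. Fractions 3 to 7 formed the sub-polysomal pool, with free ribosomal subunits and single ribosomes, and fractions 8 to 11 formed the polysomal pool, with mRNAs that carry several ribosomes. Each of the 4 groups held 3 libraries, with replicate letters A, B and C in mock and D, E and F in METTL7A1. The study's methods name biological triplicates for its gradients, but the labels do not tie the letters to separate cultures and do not say whether a line was 1 clone or a pool, so p-values measure the spread between these samples, which may be in part technical. The deposited counts summed to between 1817520 and 6966156 per library.

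The labels were checked first. Over the 6 mock libraries the Mettl7a1 count was 4 to 24, and over the 6 METTL7A1 libraries it was 989 to 2436. All 6 epithelial markers were detected, and 3 of 4 leukocyte markers were at 0 in every library. The summed CPM of the epithelial markers was 2670 to 2790 in mock sub-polysomal, 3430 to 4120 in mock polysomal, 2820 to 3080 in METTL7A1 sub-polysomal and 5210 to 6100 in METTL7A1 polysomal libraries. The mesenchymal markers Vim and Fn1 were both detected, and summed to 544 to 830 CPM over the 4 groups. Fibroblast markers summed to 0.986 to 6 CPM, with 1 of 4 at 0 throughout, and endothelial markers to 0 to 0.821 CPM. Mitochondrial genes took 4.37% to 8.49% of sub-polysomal counts and 0.684% to 2.14% of polysomal counts, and composition factors (TMM) were 0.806 to 0.977 and 1.11 to 1.23, respectively. The part of these differences in the results was not tested.

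Glycolysis turns glucose into pyruvate in the cytosol with a small gain of ATP. Tumour cells often run it at a high rate even with oxygen present and reduce much of the pyruvate to lactate. Many of its genes are known targets of the hypoxia-inducible factors and of Myc, and their enzymes are made on free cytosolic ribosomes, except that Slc2a1 is a membrane protein made at the endoplasmic reticulum.

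The members are spread over several chromosomes. In the mm10 build, the exons of Slc2a1 lie within chr4:119108711-119137983, Hk2 within chr6:82725025-82774454, Gpi1 within chr7:34201330-34230336, Pfkp within chr13:6579768-6648777 and Aldoa within chr7:126795234-126809108. Gapdh lies within chr6:125161853-125166467, Pgk1 within chrX:106187100-106203699, Eno1 within chr4:150236952-150248879, Pkm within chr9:59656368-59679375 and Ldha within chr7:46845839-46855627. The counts cover the exons of all annotated transcripts of a gene, so the alternative exons that separate the M1 and M2 forms of pyruvate kinase were not resolved.

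Some exons are shared with other genes. Pfkp shares 748 exonic bases, 17.4% of its exons, with Pitrm1 on the opposite strand, and Pitrm1 had 4385 counts against 863 for Pfkp. The kit keeps strand, but the strand setting of the counting is not given in the sources used here, so the Pfkp values are uncertain. Eno1b, a near-identical copy of Eno1 on another chromosome, had 14.6% to 18.2% of the Eno1 count in each library, and how reads that match both were assigned is not given either.

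Stretches upstream of 4 RefSeq start sites are shown, for members picked after their values were seen. Slc2a1 and Pgk1 differed between the lines in at least 1 pool. Hk2 had the highest ratio of the pools in METTL7A1, and Ldha had the highest level. The stretches were cut around ACGTG, the core of the hypoxia response element, or its reverse complement CACGT, so each holds a core by construction. The cores are in capitals. The stretches run 5′ to 3′ along the gene, from RefSeq on GRCm38.p6, and each reaches 20 bases beyond its outermost core. The exons used for counting begin further upstream in Slc2a1, at chr4:119108711, so the stretch of that gene lies partly inside them.
Slc2a1, chr4:119108689-119108733, plus strand: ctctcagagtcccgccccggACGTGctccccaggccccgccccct
Pgk1, chrX:106186930-106186993, plus strand: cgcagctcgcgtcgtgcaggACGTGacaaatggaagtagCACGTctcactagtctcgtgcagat
Hk2, chr6:82774482-82774700, minus strand: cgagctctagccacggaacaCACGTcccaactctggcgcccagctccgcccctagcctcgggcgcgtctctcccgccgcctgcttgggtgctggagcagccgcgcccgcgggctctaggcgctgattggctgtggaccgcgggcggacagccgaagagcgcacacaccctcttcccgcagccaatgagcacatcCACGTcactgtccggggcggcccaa
Ldha, chr7:46845639-46845794, plus strand: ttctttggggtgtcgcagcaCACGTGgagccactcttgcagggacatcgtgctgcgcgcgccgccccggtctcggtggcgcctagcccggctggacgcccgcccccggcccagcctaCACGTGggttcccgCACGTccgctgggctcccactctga
In Ldha, the letters CACGTG, an E-box, hold the core on both strands at a pair of places. In windows of 250 bases before to 50 after a start site, 7 of the 10 members held ACGTG or CACGT in at least 1 window, against 21.8% of all 27025 genes. Those genes were not limited to the ones tested here. Members had more windows per gene, and by window the shares were 50% of 16 against 19.6% of 32851. Ldha had 2 windows, of which 1 held this core. The other core searched, GCGTG or CACGC, was in a window of 5 members and of 35.2% of all genes. A match describes the letters only, and no binding was measured here.

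Levels were compared between genes as CPM per kilobase of exon. Ldha, which reduces pyruvate to lactate, had the highest level in each group, with 687 ± 31.1 CPM per kb (SD, n = 3) in mock sub-polysomal and 1060.4 ± 96.0 in mock polysomal libraries. Gapdh and Pkm followed, at 496 ± 52.1 and 390 ± 17.6 CPM per kb in mock sub-polysomal libraries. That pair overlapped in the mock polysomal libraries, where Pkm was at 763 ± 107 and Gapdh at 716 ± 108 CPM per kb. Then came Aldoa and Eno1, at 289 ± 26.5 and 277 ± 41.4 CPM per kb in mock polysomal libraries, which also overlapped. Pgk1 stood at 123 ± 20.3, Gpi1 at 88.1 ± 9.84 and Slc2a1 at 35.3 ± 3.62 CPM per kb in the same libraries, each apart from its neighbours.

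Hk2 and Pfkp were the scarcest of the members, although other isoforms of both enzymes, Hk1 and Pfkl, were more abundant. Hk2, the hexokinase that phosphorylates glucose, was at 8.84 ± 1.82 CPM per kb and Pfkp, the platelet-type phosphofructokinase, at 3.10 ± 0.526 in mock polysomal libraries. In METTL7A1 cells Slc2a1 stood next to Gpi1 in the polysomal pool, at 78.0 ± 5.94 against 82.9 ± 8.30 CPM per kb with overlapping libraries, and next to Pgk1 in the sub-polysomal pool, at 52.8 ± 4.20 against 51.4 ± 9.57. Gapdh and Pkm in METTL7A1 sub-polysomal libraries also overlapped, at 411 ± 44.8 and 378 ± 5.72 CPM per kb.

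**Figure D1:**
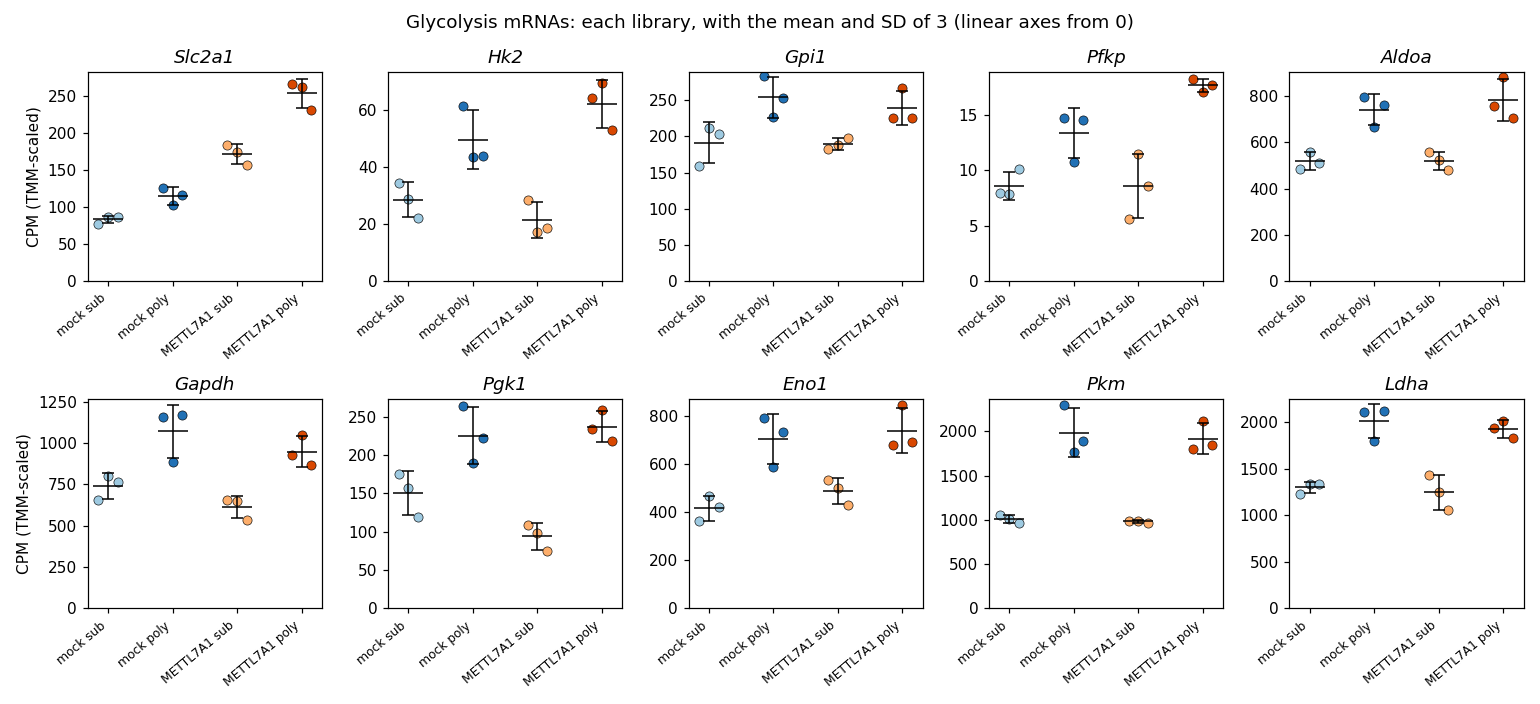
CPM of each member (vertical axes, linear from 0, TMM-scaled) in the 12 libraries, by group, with a point per library and the mean ± SD of 3 libraries. Slc2a1 lies at 158 to 185 in METTL7A1 sub-polysomal libraries against 77.9 to 86.7 in mock, and for each member the polysomal points lie above the sub-polysomal ones of the same line.

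The first question was which pool held more of these mRNAs relative to all others. All 10 members were higher in the polysomal pool of mock cells than in their sub-polysomal pool, with log2 differences from 0.40 for Gpi1 to 0.97 for Pkm and a median of 0.59, against 0.05 over all genes tested. The test was edgeR's quasi-likelihood test over the 12 libraries, and a gene passed at a Benjamini-Hochberg adjusted p below 0.05. Of all genes tested, 23.3% passed as higher and 23.7% as lower. In METTL7A1 cells 9 of 10 members passed as higher, with a median of 0.63 against 0.06 over all genes, where 30.0% of all genes passed as higher and 29.3% as lower. Gpi1 was the one that did not pass there, at 0.33 ± 0.14 (SE, adjusted p = 0.0549). It did pass there under 4 of 15 alternatives, among them limma-voom (adjusted p = 0.0489) and leaving out letter A (0.0169). In mock the Gpi1 call was lost under 5 of 15. How many of all genes count as higher depends on the scale. In mock, 2850 were higher and 2896 lower with TMM, 5631 and 1786 with library totals, and 2075 and 2876 with Actb scaling. In METTL7A1 the numbers were 3670 and 3578, 6085 and 2266, and 2137 and 4230. The 10 members were above 0 in both lines under all 3 scales. With TMM, 6452 of all 12224 genes were above 0 in mock and 6382 in METTL7A1. That number was not counted under the other scales, and with library totals the median of all genes was itself 0.45 and 0.53.

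The share of counts comes from the same data, set against library totals without composition scaling. On that scale the median log2 difference of all genes between the pools was itself 0.45 in mock and 0.53 in METTL7A1. The 10 members took 0.406% ± 0.0122 (SD, n = 3) of the counts in mock sub-polysomal libraries and 0.858% ± 0.107 in mock polysomal libraries. In METTL7A1 cells the shares were 0.352% ± 0.0332 and 0.801% ± 0.0716. The CPM of the 3 polysomal libraries lay above those of all 3 sub-polysomal libraries for 10 of 10 members in both lines. Over all genes tested, the pools did not overlap for 51.9% in mock and 66.8% in METTL7A1, in either direction.

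Pkm, the pyruvate kinase that makes pyruvate and ATP in the last step, had 1060.4, 1010.0 and 969 CPM in mock sub-polysomal libraries A, B and C and 2298, 1765 and 1889.5 in the polysomal ones. In METTL7A1 cells it had 988, 992 and 965 CPM in sub-polysomal libraries D, E and F and 1795, 2115 and 1845 in the polysomal ones. The pools were far apart in both lines and the lines overlapped within the polysomal pool. The log2 difference was 0.97 ± 0.16 (SE) in both, a 1.96-fold and a 1.95-fold higher level, with adjusted p = 7.01e-05 in mock and 4e-05 in METTL7A1.

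Ldha had 1234, 1338 and 1333 CPM in mock sub-polysomal libraries and 2110.4, 1799 and 2119 CPM in mock polysomal libraries. In METTL7A1 cells the sub-polysomal libraries had 1430.2, 1246 and 1059 CPM and the polysomal ones 1940, 2016 and 1825. Its log2 differences between the pools were 0.63 ± 0.16 in both lines (adjusted p = 0.00358 and 0.00241). Gapdh, which oxidises glyceraldehyde 3-phosphate and is a common reference gene, was also higher in the polysomal pool, by 0.53 ± 0.16 in mock (adjusted p = 0.0124) and 0.62 ± 0.16 in METTL7A1 (adjusted p = 0.003).

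Aldoa, which splits fructose 1,6-bisphosphate, and Eno1, which makes phosphoenolpyruvate, had polysomal levels 1.43-fold and 1.69-fold their sub-polysomal levels in mock, and 1.5-fold and 1.52-fold in METTL7A1. Gpi1, the isomerase of glucose 6-phosphate, had the lowest ratios, 1.32-fold and 1.26-fold. Slc2a1 stood at 1.37-fold in mock and 1.48-fold in METTL7A1. These are relative levels, since the amount of RNA in each pool was not measured.

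Hk2 and Pgk1 had the highest ratios in METTL7A1 cells. Their log2 differences there were 1.56 ± 0.21 (adjusted p = 4.57e-06) and 1.34 ± 0.18 (adjusted p = 4.07e-06), against 0.84 ± 0.21 and 0.59 ± 0.17 in mock. Pfkp was at 1.01 ± 0.21 in METTL7A1 (adjusted p = 0.000465) and 0.59 ± 0.22 in mock (adjusted p = 0.0355), on 14 to 133 counts per library. The mock call of Pfkp was lost under 9 of 15 alternatives, among them DESeq2 (adjusted p = 0.0752), limma-voom (0.0582) and leaving out letter A (0.42, adjusted p = 0.215), B (0.64, adjusted p = 0.0616), C (0.69, adjusted p = 0.0763) or F (0.59, adjusted p = 0.0517), so that 9 of 10 members passed in mock with either of those tools. Under a stricter limit, adjusted p below 0.01 and a log2 difference beyond 1.5, Hk2 in METTL7A1 was the one member that passed. That limit passed 7.55% of all genes between the pools in mock and 12.1% in METTL7A1, in either direction.

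The number of members that passed in mock changed with the letter left out, as did that of all genes. Without letter A 6 members passed as higher, and 2116 of all genes did. Without letter B the numbers were 9 and 2192, and without C 5 and 2323, against 10 and 2850 with all letters. With scaling to the Actb count 5 members passed in mock and 4 in METTL7A1. Of the METTL7A1 letters, leaving out E gave the lowest count in METTL7A1, 7, with 2611 of all genes against 3670. The members' median lay above that of all genes by 0.54 in mock and 0.57 in METTL7A1, and over 15 alternatives by 0.44 (without letter A) to 0.67 (without letter B) in mock and 0.51 to 0.65 in METTL7A1.

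**Figure D2:**
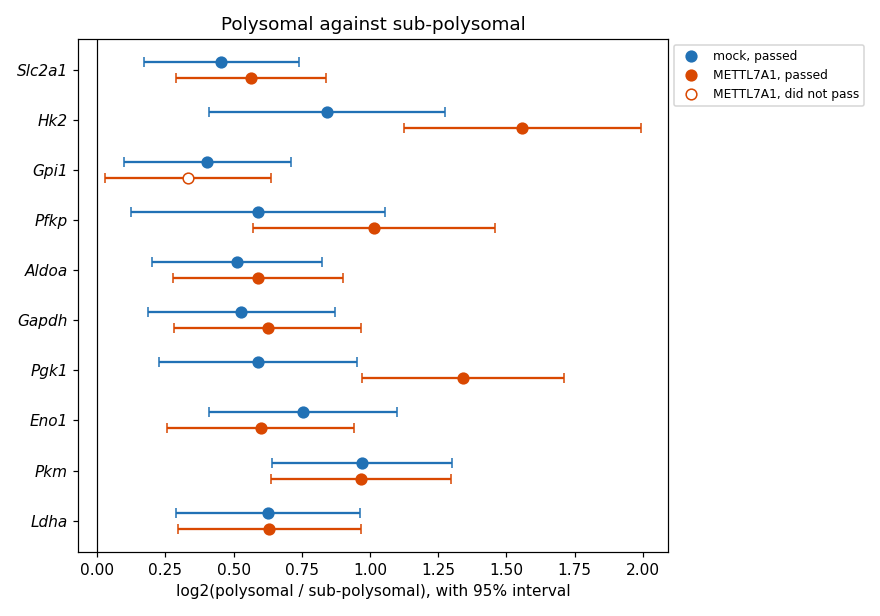
Log2 ratio of the polysomal to the sub-polysomal level of each member (horizontal axis), with 95% intervals, in mock and METTL7A1 cells. Filled points passed the test; all lie above 0, from 0.33 for Gpi1 to 1.56 for Hk2, both in METTL7A1.

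The next question was whether METTL7A1 cells differed from mock cells within a pool. Slc2a1, the transporter GLUT1 that brings glucose into the cell, was the one member that rose in both pools, and Pgk1, the kinase that makes ATP from 1,3-bisphosphoglycerate, fell in the sub-polysomal pool and did not pass in the polysomal pool. The other 8 members passed in neither pool. In the polysomal pool 1 of 10 members passed as higher and 0 as lower, where 9.69% and 8.28% of all genes did. In the sub-polysomal pool 1 passed as higher and 1 as lower, where 16.8% and 14.5% of all genes did. Under the stricter limit no member passed in either pool, and 2.13% of all genes did in the polysomal and 2.76% in the sub-polysomal pool. With Actb scaling, which moved the median of all genes by 0.26 in the sub-polysomal pool, 3283 genes were higher and 667 lower there and 1234 and 495 in the polysomal pool, and with library totals 1433 and 2635, and 863 and 1380, against 2058 and 1776, and 1185 and 1012, with TMM. The medians of the members were 0.07 and -0.03, against -0.01 and -0.0015 over all genes. Some genes are described below as having no overlap between the lines within a pool. The share of all genes with no such overlap was not counted, so these remarks describe the values only.

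Slc2a1 had 77.9, 86.2 and 86.7 CPM in mock sub-polysomal libraries A, B and C and 185, 174 and 158 CPM in METTL7A1 libraries D, E and F. In the polysomal pool it had 126, 103 and 116 CPM in mock and 268, 263 and 232 in METTL7A1. All METTL7A1 libraries lay above all mock libraries of their pool, and the METTL7A1 sub-polysomal libraries even lay above the mock polysomal ones. The rise was 2.05-fold in the sub-polysomal pool (95% interval 1.68 to 2.5, adjusted p = 2.77e-05) and 2.21-fold in the polysomal pool (95% interval 1.83 to 2.68, adjusted p = 7.17e-06). Slc2a1 passed in both pools under each of the 14 alternatives of scaling, filter, tool and left-out letter, with log2 differences of at least 0.88 and 1.05. The summed epithelial markers were higher in METTL7A1 in the polysomal pool as well, and their part in this result was not tested. In bulk samples more cells with a high level and more RNA per cell cannot be told apart.

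Pgk1 had 176, 157 and 119 CPM in mock sub-polysomal libraries and 109, 98.0 and 74.6 CPM in METTL7A1 ones. In the polysomal pool it had 264, 189.5 and 222 CPM in mock and 234, 258 and 219 in METTL7A1. Thus the groups did not overlap in the sub-polysomal pool and overlapped in the polysomal pool. The sub-polysomal level fell by 0.68 on the log2 scale (SE 0.18, adjusted p = 0.00746), and the polysomal difference was 0.07 ± 0.17 (adjusted p = 0.81). Without letter F the sub-polysomal difference was -0.53 (adjusted p = 0.0538), and with Actb scaling -0.42 (adjusted p = 0.119), so the call was lost under both.

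Hk2 had 34.4, 29.0 and 22.1 CPM in mock sub-polysomal libraries and 28.5, 17.1 and 18.7 in METTL7A1 ones. In the polysomal pool the values were 61.4, 43.6 and 43.9 CPM in mock and 64.4, 69.3 and 52.9 in METTL7A1. The lines overlapped in both pools, and the log2 differences were -0.39 ± 0.23 (adjusted p = 0.201) and 0.33 ± 0.19 (adjusted p = 0.244). Without letter A, Hk2 passed as higher in the polysomal pool, at 0.52 (adjusted p = 0.0411).

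Pfkp did not pass in the polysomal pool, although the 10.7 to 14.7 CPM of mock lay below the 17.1 to 18.2 CPM of METTL7A1 (log2 0.40 ± 0.18, adjusted p = 0.138). Gapdh had 655, 804 and 768 CPM in mock sub-polysomal libraries and 653, 653 and 537 in METTL7A1 ones. Those groups stood just apart, and the log2 difference of -0.27 ± 0.16 did not pass (adjusted p = 0.212), though it did with library totals as the scale (-0.44, adjusted p = 0.0402). Eno1 passed as higher in that pool with Actb scaling (0.50, adjusted p = 0.0351). For Gpi1, Aldoa, Eno1, Pkm and Ldha the log2 differences lay between -0.09 and 0.22 over both pools. Their 95% intervals reached from -0.40 to 0.57 at the widest.

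**Figure D3:**
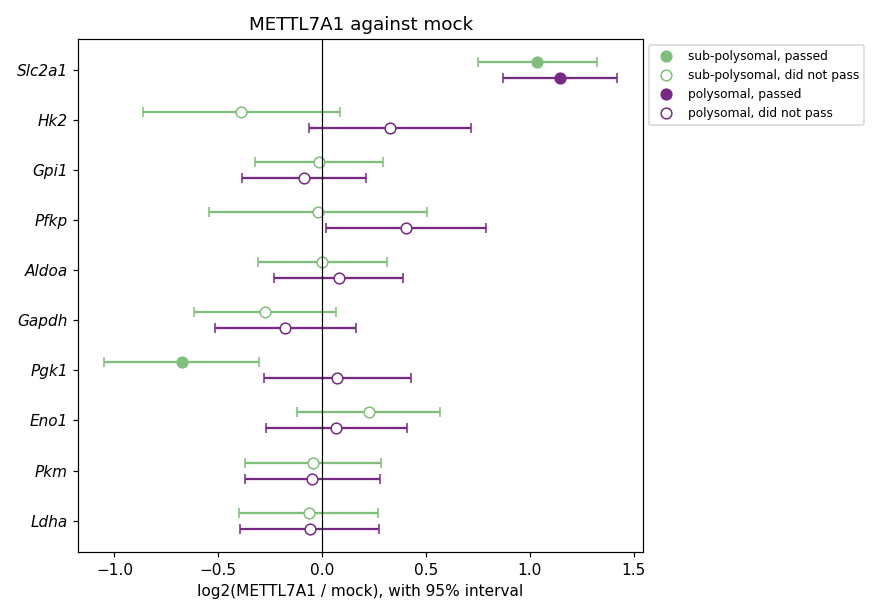
Log2 ratio of METTL7A1 to mock (horizontal axis) for each member in the sub-polysomal and the polysomal pool, with 95% intervals. Slc2a1 (1.04 and 1.14) and sub-polysomal Pgk1 (-0.68) have filled points, which mark a passed test.

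The last question was whether the balance between the pools differed between the lines, that is, whether the polysomal to sub-polysomal ratio shifted. For 0 of 10 members did this difference of differences pass, and 0% of all genes passed in the edgeR quasi-likelihood fit. With p below 0.05 before adjustment the count was 2 of 10 members, Pgk1 and Hk2, against 15.6% of all genes. With limma-voom 0 genes passed, and with DESeq2 329 genes passed, none of them a member. The median shift was 0.09 for the members and -0.0079 for all genes.

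Pgk1 had ratios of 0.59, 0.27 and 0.90 (log2, letters A, B and C) in mock and 1.10, 1.39 and 1.55 (D, E and F) in METTL7A1. The shift was 0.75 (95% interval 0.24 to 1.26, adjusted p = 0.153). Hk2 had ratios of 0.83, 0.58 and 0.98 in mock and 1.16, 1.99 and 1.49 in METTL7A1, with a shift of 0.72 (95% interval 0.10 to 1.33, adjusted p = 0.25). For these 2 members all METTL7A1 ratios lay above all mock ratios, which was so, in either direction, for 22.8% of all genes. The exact two-sided permutation p was 0.1 for each, the smallest that 3 against 3 can give.

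The other members overlapped. Slc2a1 had ratios of 0.69, 0.25 and 0.42 in mock and 0.53, 0.59 and 0.56 in METTL7A1, and the difference between its rises in the pools was 0.11 (95% interval -0.29 to 0.50). Pkm had 1.12, 0.81 and 0.96 against 0.86, 1.09 and 0.94, with a shift of -0.0030 (95% interval -0.46 to 0.46). Letter B had the lowest mock ratio for each of the 10 members. The share of all genes for which this was so was not counted, so it describes the values only.

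**Figure D4:**
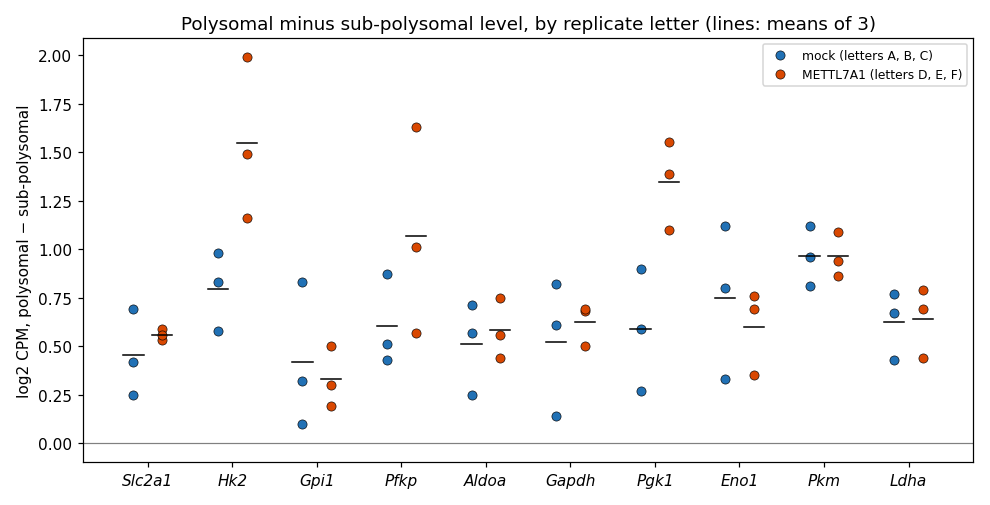
Log2 CPM of the polysomal minus that of the sub-polysomal library of one letter (vertical axis) for each member, with a point per letter and the mean of 3 as a line. Hk2 and Pgk1 have METTL7A1 points (1.16 to 1.99 and 1.10 to 1.55) above all mock points (0.58 to 0.98 and 0.27 to 0.90).

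The profile of Slc2a1 over the libraries stood apart from the rest. Its log2 CPM correlated with the mean of the other 9 members with Pearson's r = 0.395 over 12 libraries, whereas the other members gave 0.815 (Pfkp) to 0.983 (Aldoa). These points share the pools and lines of the design, so the values describe the libraries only. Among 8158 genes with a mean of at least 10 CPM, those most like the members' mean profile were Anapc7, Maged1, Las1l, Smarca4 and Cct2, with r of 0.985 to 0.989.

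Other isoforms and steps of glycolysis were counted from a list of 27 genes, of which 13 were tested. Between the pools 6 passed as higher in mock and 7 in METTL7A1, none as lower, with medians of 0.50 and 0.64. The most abundant by CPM were the isomerase Tpi1, the lactate exporter Slc16a1 and the muscle-type enolase Eno3. Tpi1 was higher in the polysomal pool in mock, by 0.60 ± 0.15 (adjusted p = 0.00299), and at 0.28 ± 0.15 in METTL7A1 it did not pass (adjusted p = 0.116). It passed in METTL7A1 under 2 of 15 alternatives, leaving out letter A (adjusted p = 0.0364) and library totals (0.000184). The shift of Tpi1, -0.32 ± 0.21, did not pass (adjusted p = 0.48).

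The minor isoforms among the members have more abundant partners, named here after their values were seen. Pfkl, the liver-type phosphofructokinase, had 11.5 to 26.2 times the level of Pfkp per kilobase in each library and was higher in the polysomal pool by 1.20 ± 0.15 in mock (adjusted p = 7.03e-06) and 1.01 ± 0.15 in METTL7A1 (adjusted p = 1.66e-05). Hk1, the other widely expressed hexokinase, had 1.06 to 3.37 times the level of Hk2. Hk1 had 56.5, 49.6 and 60.4 CPM in mock polysomal libraries and 102, 109 and 66.7 in METTL7A1 ones. It rose there by 0.74 ± 0.17 (adjusted p = 0.0058), a call lost without letter E (0.60, adjusted p = 0.0718), and in the sub-polysomal pool its difference was 0.09 ± 0.19 (adjusted p = 0.744).

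From the same list, 2 genes were higher and 1 lower in METTL7A1 polysomal libraries, and 0 higher and 1 lower in sub-polysomal ones. The lower one was Ldhb, the lactate dehydrogenase subunit partner of Ldha. Ldhb had 4, 4 and 7 counts in mock sub-polysomal and 25, 26 and 21 counts in mock polysomal libraries, and 0 counts in all 6 METTL7A1 libraries. It met the filter through mock libraries alone, so its place among the tested genes depended on the line where it was higher. Against a floor of 3 counts over the group, Ldhb was at least 22.4-fold lower in the polysomal and at least 6.11-fold lower in the sub-polysomal pool. The sub-polysomal value rests on 15 mock counts in total. Slc16a1, the monocarboxylate transporter MCT1, rose in the polysomal pool by 0.45 ± 0.15 (adjusted p = 0.049) and was at 0.29 ± 0.16 in the sub-polysomal pool (adjusted p = 0.171). That call was lost under 10 of 14 alternatives, among them leaving out letter B, C, D, E or F, with adjusted p up to 0.203.

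Genes of the neighbouring pathways were also counted between the lines. In the polysomal pool the counts are to be read against the 9.69% of all genes that were higher and 8.28% lower. In the sub-polysomal pool those shares were 16.8% and 14.5%. Of 8 tested regulators of phosphofructokinase and gluconeogenic enzymes, 1 passed as higher in METTL7A1 polysomal libraries, and 2 as higher and 2 as lower in sub-polysomal ones. Of 12 tested genes of pyruvate entry into mitochondria, 2 were higher in METTL7A1 polysomal libraries, and 2 higher and 1 lower in sub-polysomal ones. The lower one was Pdha1, the catalytic subunit of pyruvate dehydrogenase, with 99.9, 89.4 and 91.6 CPM in mock sub-polysomal libraries and 61.7, 49.1 and 47.3 in METTL7A1 ones. It fell by 0.83 (SE 0.14, adjusted p = 0.000336), and its polysomal difference was -0.02 ± 0.13 (adjusted p = 0.941). Like Pgk1, it thus fell in the sub-polysomal pool and did not pass in the polysomal pool, and its shift of 0.81 ± 0.20 did not pass (adjusted p = 0.114). It passed with DESeq2 (0.81, adjusted p = 0.00651) and without letter A (0.89, adjusted p = 0.043). Of 10 tested genes of the pentose phosphate pathway, Pgd, which makes NADPH, was the one that rose in the polysomal pool (0.48 ± 0.13, adjusted p = 0.0159; without letter B 0.42, adjusted p = 0.0843, and without E 0.47, adjusted p = 0.0908), and 1 was lower in the sub-polysomal pool.

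Of 11 tested transcriptional regulators of glycolysis, 0 were higher and 2 lower in METTL7A1 polysomal libraries, and 1 was higher and 2 lower in sub-polysomal ones. Egln3, a prolyl hydroxylase that marks hypoxia-inducible factors and is itself induced by them, was lower in both pools, by -0.50 ± 0.12 (adjusted p = 0.00879) in the polysomal and -0.69 ± 0.14 (adjusted p = 0.00101) in the sub-polysomal pool. With Actb scaling the values were -0.40 (adjusted p = 0.0802) and -0.43 (adjusted p = 0.0513), and without letter E the polysomal call was lost as well (-0.51, adjusted p = 0.0516). The mRNA of Hif1a, named after its values were seen, was at -0.54 ± 0.23 (adjusted p = 0.106) and -0.48 ± 0.25 (adjusted p = 0.143), and without letter C it passed in the polysomal pool (-0.79, adjusted p = 0.0101). Without the filter on low counts Hif1a passed as lower in both pools (-0.54, adjusted p = 0.0102, and -0.46, adjusted p = 0.0488).

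Of 14 tested hypoxia-induced mRNAs outside glycolysis, 2 were higher and 3 lower in METTL7A1 polysomal libraries, and 2 higher and 4 lower in sub-polysomal ones. Car9, the carbonic anhydrase that is a standard hypoxia marker, had 42.3, 33.0 and 34.9 CPM in mock sub-polysomal libraries and 16.2, 18.1 and 11.0 in METTL7A1 ones, and 36.7, 31.5 and 42.9 against 21.6, 19.3 and 14.5 in the polysomal pool. Its groups did not overlap in either pool, and the log2 differences were -1.27 ± 0.21 (adjusted p = 0.000194) and -1.00 ± 0.18 (adjusted p = 0.000687). Bnip3l, a mitophagy receptor, was lower in both pools (-0.45 and -0.47, adjusted p = 0.0334 and 0.0321), and Ndrg1 was higher in both (0.47 and 0.44, adjusted p = 0.0106 and 0.0176). Of 14 alternatives, the Car9 calls were lost under 0 in either pool. The Bnip3l calls were lost under 7 in the sub-polysomal and 6 in the polysomal pool, among them Actb scaling (-0.20 and -0.36) and leaving out letter A, D, E or F, and the Ndrg1 calls under 3 and 5, among them leaving out letter E (0.45 and 0.40).

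Of 12 common reference mRNAs, 2 were higher in METTL7A1 polysomal libraries, and 1 higher and 1 lower in sub-polysomal ones. B2m was higher in both pools, by 0.65 ± 0.17 (adjusted p = 0.0118) and 0.60 ± 0.17 (adjusted p = 0.0116), calls that were lost without letter F in the polysomal pool (0.52, adjusted p = 0.0813) and, in the sub-polysomal pool, without letter C, D or E or with library totals (adjusted p up to 0.0587 over 14 alternatives). Actb was at -0.10 ± 0.16 and -0.26 ± 0.16 (adjusted p = 0.722 and 0.23). Between these reference genes, Gapdh stood at 0.246 ± 0.0124 of the Actb count in mock sub-polysomal and 0.335 ± 0.0472 in mock polysomal libraries, and at 0.245 ± 0.0404 and 0.317 ± 0.0076 in METTL7A1. With each library scaled to Actb, the higher polysomal level of Gapdh did not pass in mock (0.45, adjusted p = 0.0518) or METTL7A1 (0.37, adjusted p = 0.0878).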

How the data were processed

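Sub-polysomal and polysomal RNA of mock and METTL7A1 4T1 cells was analysed in 12 libraries, 3 in each of 4 groups. The deposited values are counts per gene. The authors trimmed reads with BBDuk, aligned them to mm10 with STAR 2.5.3a and counted them with featureCounts on the Ensembl annotation of GRCm38, and applied no normalization. Strand setting and handling of multi-mapped reads are not given in the sources used here.

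All 12 libraries entered 1 fit of group means in edgeR 4.0.16 (quasi-likelihood test, TMM scaling) under R 4.3.3. The filter asked for 1 CPM or more in 3 libraries or more, and p-values were adjusted over all 12224 genes (Benjamini-Hochberg). SEs come from the F statistic, and 95% intervals from the t distribution. Log2 CPM used a prior count of 2. Levels between genes were divided by the deposited exon length. Alternatives were DESeq2 1.42.0, limma-voom (limma 3.58.1), other scalings and filters, and leaving out each letter. The fit was tested on simulated counts with planted changes.

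Pools with the same letter correlated in their deviations with r from -0.29 to 0.11 over 6 letters, so letters were not pairs in the fits and entered a block only as an alternative. The ratios by letter, their overlap and their permutation tests do use same-letter pools as pairs.

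The members and lists were chosen with earlier results of these data known. Of the lists, genes were named that passed in both pools or in the shift, and the 3 with the highest mean CPM of a list. By that rule the remaining names, not described above, were Tigar, Pck2, G6pc3, Pdhb, Dld, Pgls, Tkt, Egln1, Myc, Txnip, Mif, Higd1a, Ppia and Rplp0. Counts limit precision most for Pfkp (14 to 133 counts), and intervals of counts and floors cover counting error only.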

Additional observations from a re-analysis of the deposited data

How the results depend on the processing

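Of the results that answer a comparison, those listed here moved, and the cause was not tested. With Actb scaling 5 members passed as higher in the polysomal pool in mock and 4 in METTL7A1 (median 0.38), and in METTL7A1 against mock, sub-polysomal, 2 passed as higher and 0 as lower (median 0.23). The median shift was then -0.083. With library totals the medians between the pools were 0.99 in mock and 1.10 in METTL7A1, and in METTL7A1 against mock, sub-polysomal, 2 passed as lower (median -0.20). That scaling and the Actb one, of which the totals were added after the data were seen, move all genes together, the median of all genes between the pools being 0.45 in mock and 0.53 in METTL7A1 with totals and -0.022 and -0.18 with Actb. By that construction the members' median minus that of all genes was 0.53 in mock with both. Under the stricter limit the counts of members were 0 in mock and 1 in METTL7A1 between the pools, and 0, 0 and 0 between the lines. Without mitochondrial genes the members took 0.438% of mock sub-polysomal counts. The replicate block, with 9 members in METTL7A1, changed no call of a member, and 3 of 6 letters correlated best with their own. It could be run within a line and for the shift, since the lines share no letters.

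Leaving out each letter, 5 to 10 members passed as higher in mock and 7 to 10 in METTL7A1. Of all genes, 2116 (without A) to 2765 (without D) did so in mock and 2611 (without E) to 3734 (without A) in METTL7A1. Against mock, 1 to 2 members passed as higher in the polysomal pool and 0 to 1 as lower in the sub-polysomal pool. The numbers over all genes were 627 to 1327 and 1067 to 1730. The members' median shift was -0.063 to 0.24.

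The differences that changed sign were small and did not pass. With Actb scaling, METTL7A1 against mock gave 0.012 for Gpi1, 0.054 for Pkm, 0.039 for Ldha and 0.084 for Pdha1 in the polysomal pool, and 0.25 for Gpi1, 0.24 for Pfkp, 0.21 for Pkm and 0.20 for Ldha in the sub-polysomal pool. The shift was -0.057 for Slc2a1, -0.091 for Aldoa, -0.076 for Gapdh and -0.16 for Ldha. With library totals the polysomal values were -0.010 for Aldoa, -0.018 for Pgk1 and -0.021 for Eno1, the sub-polysomal ones -0.16 for Aldoa and -0.068 for Hk1, and the shift 0.076 for Pkm. Without a filter the sub-polysomal values were 0.0070 for Gpi1 and 0.0006 for Pfkp, and the shift -0.025 for Ldha. Sub-polysomal Aldoa was -0.0091 with RLE factors, -0.010 with DESeq2, -0.0088 with at least 10 counts in every library and -0.027 in a fit of the compared groups, and with 10 counts the shift of Ldha was -0.0094. The shift of Pkm was 0.0023 with limma-voom and 0.0022 with the replicate block.

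Over the left-out letters, METTL7A1 against mock in the polysomal pool ran from -0.17 to 0.010 for Gpi1, -0.018 to 0.15 for Aldoa, -0.039 to 0.22 for Pgk1, -0.049 to 0.17 for Eno1, -0.13 to 0.083 for Pkm and -0.088 to 0.079 for Pdha1. In the sub-polysomal pool it ran from -0.14 to 0.057 for Gpi1, -0.28 to 0.17 for Pfkp, -0.065 to 0.058 for Aldoa, -0.18 to 0.040 for Ldha and -0.022 to 0.24 for Hk1. The shift ran from -0.22 to 0.16 for Gpi1, -0.050 to 0.21 for Aldoa, -0.084 to 0.27 for Gapdh, -0.36 to 0.061 for Eno1, -0.077 to 0.11 for Pkm and -0.088 to 0.12 for Ldha, and Actb between the mock pools from -0.085 to 0.19. Depth limits Pfkp most.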
